A study of Mus musculus with 18 samples.

Results

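The question addressed here was which liver genes responded differently to a high-fat diet in mice with and without liver-specific deletion of SAPS3. Also asked was what patterns those genes formed over the 4 groups of the study. SAPS3 is the protein encoded by Ppp6r3, a regulatory subunit of the phosphatase PP6. For each gene the response of LKO mice to the diet (LKO HFD minus LKO CD) minus the response of FF mice (FF HFD minus FF CD) was computed on log2(RPKM + 1), a difference of differences called the interaction below. The test covered 11090 of the 25266 genes listed, those whose mean over the 18 mice reached 0.5 RPKM. An interaction was called at a fold above 1.5 with an adjusted p under 0.05 in limma (Benjamini-Hochberg over all tested genes), and 271 genes met this.

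Liver RNA came from 18 male C57BL/6J mice, 4 FF and 4 LKO mice on the control diet (CD, 10% of calories from fat) and 5 FF and 5 LKO mice on the high-fat diet (HFD, 32.5%). Diets started at 8 weeks of age and lasted 16 weeks. Mice of all groups carried floxed Ppp6r3 (Ppp6r3 fl/fl), and those without Cre form the FF group. LKO mice carried in addition a Cre recombinase under the albumin promoter, which the paper describes as liver-specific. Which cells of the liver kept the gene was not tested. A group with Cre but without floxed Ppp6r3 was not analysed here.

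The liver adapts to fat in the diet through nuclear receptors. PPAR-alpha, activated by fatty acids, drives the genes of fatty acid oxidation, while PPAR-gamma and its targets promote uptake and storage of fat in droplets. A further layer in rodent liver is the sex-dependent programme set by the pulses of growth hormone and carried by STAT5, under which male liver makes large amounts of major urinary proteins and the P450 enzymes of male and female liver differ.

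Ppp6r3 transcripts followed the genotype labels in every mouse. Ppp6r3 was 8.38, 8.82, 11 and 9.17 in FF CD mice, 4.08, 3.88, 4.02 and 3.99 in LKO CD mice, 8.82, 7.55, 8.11, 8.47 and 8.22 in FF HFD mice, and 4.22, 4.42, 4.87, 4.71 and 4.77 in LKO HFD mice (RPKM). No LKO mouse reached the lowest FF mouse on either diet. The LKO minus FF difference on the log2 scale was -1.04 (adjusted p = 6.72e-07) on CD and -0.72 (adjusted p = 7.14e-06) on HFD, and its interaction of 0.32 ± 0.10 (SE, adjusted p = 0.106) was not called. The remaining transcript cannot be assigned to hepatocytes or to other cells here. Hepatocyte markers (10 tested genes) summed to between 37169 and 57039 RPKM in all mice, and none of the 10 had a called interaction. Sequencing depth, recovered from the steps between low RPKM values, was 23.4 to 37.0 M reads per mouse, with ranges that overlapped between the groups. Each of the 18 libraries is a separate mouse, so errors rest on the spread between mice. The SE given with an interaction pools this spread over the 4 groups and is moderated across genes by limma. In bulk liver, fewer cells of a type and less RNA per cell cannot be told apart.

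Of the 11090 tested genes, 271 (2.44%) had a called interaction, 105 (0.947%) with a higher response in LKO than in FF mice and 166 (1.5%) with a lower one. The median SE of an interaction was 0.15 on the log2 scale and the median interaction over all genes was -0.01, with 48.7% of genes above 0. Rescaling each mouse to the same summed RPKM gave 112 higher and 299 lower calls, a different split. Some single mice moved the total by more than 1.5 times. It was 156 after FF CD mouse 3 was left out, 177 for FF HFD mouse 2, and 157 and 162 for mice 2 and 4 of LKO CD. Leaving out any other mouse gave 207 to 392 calls.

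The called genes mostly responded to HFD in FF mice and not detectably in LKO mice. A change with diet was called for 732 genes in FF mice (6.6%) and for 141 in LKO mice (1.27%). The median SE was 0.11 in both, which the fit fixes by pooling the spread of all groups. It does not compare the spread of the genotypes. Of the 271 genes, 211 (77.9%) had a diet change called in FF mice only, 16 in LKO mice only, 6 in both with opposite directions, none in both with the same direction and 38 in neither. The diet change was larger in FF than in LKO mice for 240 of the 271 (88.6%). The 64 genes called higher and 147 called lower for the interaction among those with a change in FF mice only are those that fell and rose, respectively, with HFD in FF mice. Because the interaction is computed from the same mice, these shares describe the called genes and are no separate evidence.

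**Figure D1:**
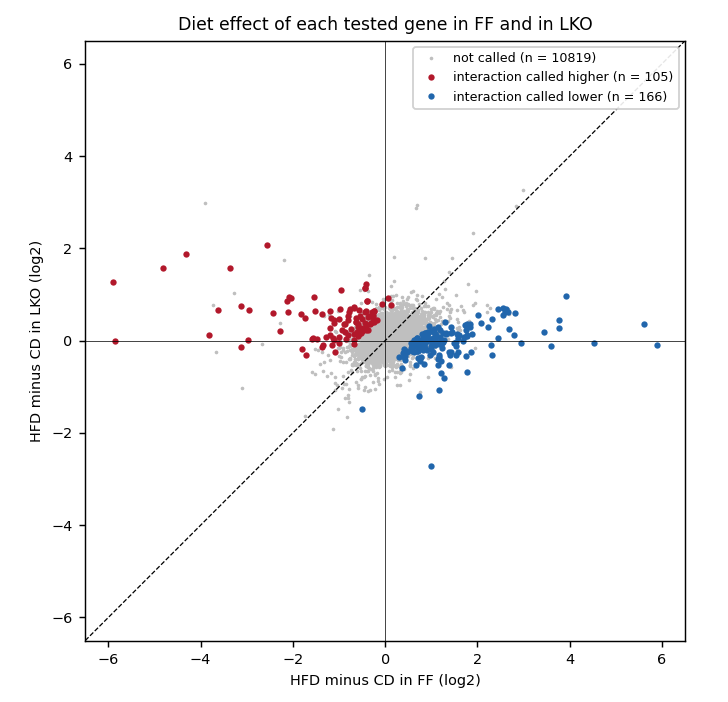
Change with HFD in FF mice (horizontal axis) against the change with HFD in LKO mice (vertical axis), both as log2 differences, with 1 point per tested gene, called interactions in red (higher) or blue (lower) and a dashed line of equal change. Most called genes lie far from 0 along the FF axis and near 0 along the LKO axis, and over all 11090 genes Pearson's r was 0.22.

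The same interaction can be read as a genotype difference that changes with the diet. LKO and FF mice differed in 25 genes on CD (0.225%) and in 230 on HFD (2.07%). Among the 271 genes the genotype difference was called on HFD only for 120 (44.3%), on CD only for 16, on both diets with opposite directions for 7, on both with the same direction for none and on neither for 128 (47.2%). The genotype differences on the 2 diets had opposite signs for 267 of the 271 (98.5%), and for 56.9% of all tested genes. A large interaction favours opposite signs, so the first share follows in part from the call.

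**Figure D2:**
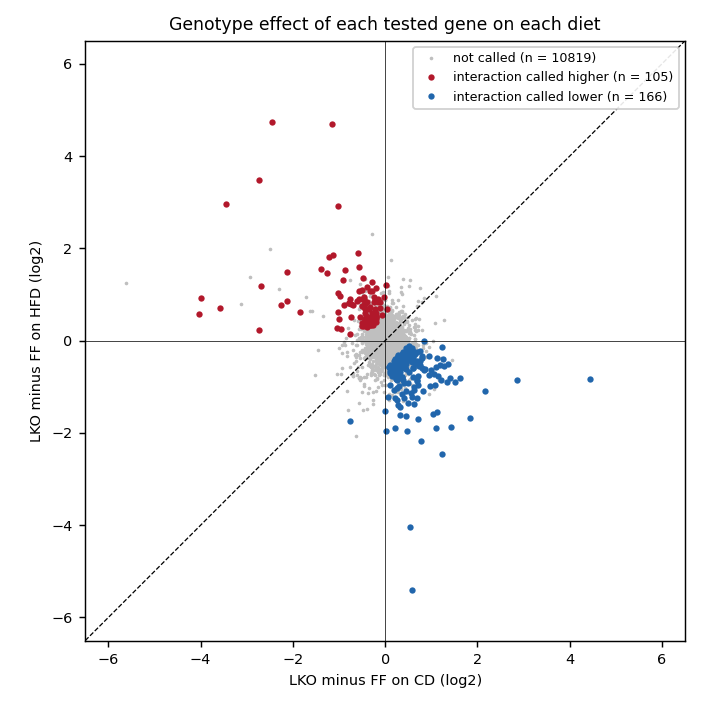
LKO minus FF difference on CD (horizontal axis) against the same difference on HFD (vertical axis), as log2 values with 1 point per tested gene, called interactions in red (higher) or blue (lower) and a dashed line of equal difference. Most called genes lie in the upper left and lower right quadrants, and over all 11090 genes, measured in different mice on the 2 axes, Pearson's r was -0.35.

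Across all tested genes, Pearson's r between the genotype differences on CD and on HFD was -0.35 and Spearman's rho -0.27. It was -0.43 among the 3386 genes averaging 10 RPKM or more, and between -0.29 and -0.39 when each mouse was left out in turn. The diet changes in FF and LKO mice had an r of 0.22 and a rho of 0.34, with r between 0.12 and 0.29 when each mouse was left out. These are descriptions across genes, which are not independent replicates. Mice differ between the 2 axes of each pair, while the length of a gene is common to both. How the libraries were divided for preparation is not given in the sources used here.

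To describe the 4-group patterns, the 4 group means of each gene, on the log2(RPKM + 1) scale, were put in order and divided at the largest gap, which sets 1 group or a pair of groups apart from the rest. A pattern was taken as clear where that gap was at least 0.5 of the range of the 4 means, and as separate where no mouse on one side reached a mouse on the other. FF HFD stood apart from the other 3 groups in 46.9% of the 271 called genes, being high in 85 and low in 42. FF CD stood apart in 28.8%, being low in 60 and high in 18. These shares depended on single mice. Leaving out each mouse gave 41.7% to 55.4% for FF HFD apart and 20.2% to 36.7% for FF CD apart. A further 28 genes were high in FF CD and LKO HFD and 18 were high in LKO CD and FF HFD, which are crossing patterns. LKO HFD stood apart as high in 13 genes and as low in 2, and LKO CD as low in 4 and as high in 1. The pattern was clear for 188 of the called genes (69.4%) and for 71.8% of all tested genes. Among genes named below it was not clear for some, such as Mup7, Cyp7b1, Fgb, Xbp1, Cyp1a2 and Abcc3 (gaps of 0.38 to 0.46 of the range). Mice on the 2 sides were separate for 130 of the called genes (48.0%) and for 479 (4.32%) of all genes.

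Patterns of the called genes differed in frequency from those of all genes, in part because the call selects them. High in both HFD groups was the commonest pattern of all tested genes, with 1967 genes (17.7%), and held none of the called ones. FF HFD high was the pattern of 31.4% of called and 11.4% of all genes, and FF CD low of 22.1% and 13.8%. FF HFD low was that of 15.5% and 11.9%, and the crossing pattern with FF CD and LKO HFD high that of 10.3% and 3.11%. By contrast LKO HFD high was the pattern of 4.80% of called and 14.8% of all genes. Patterns with both diets, or both genotypes, on 1 side of the gap need no interaction and held 0 called genes.

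**Figure D3:**
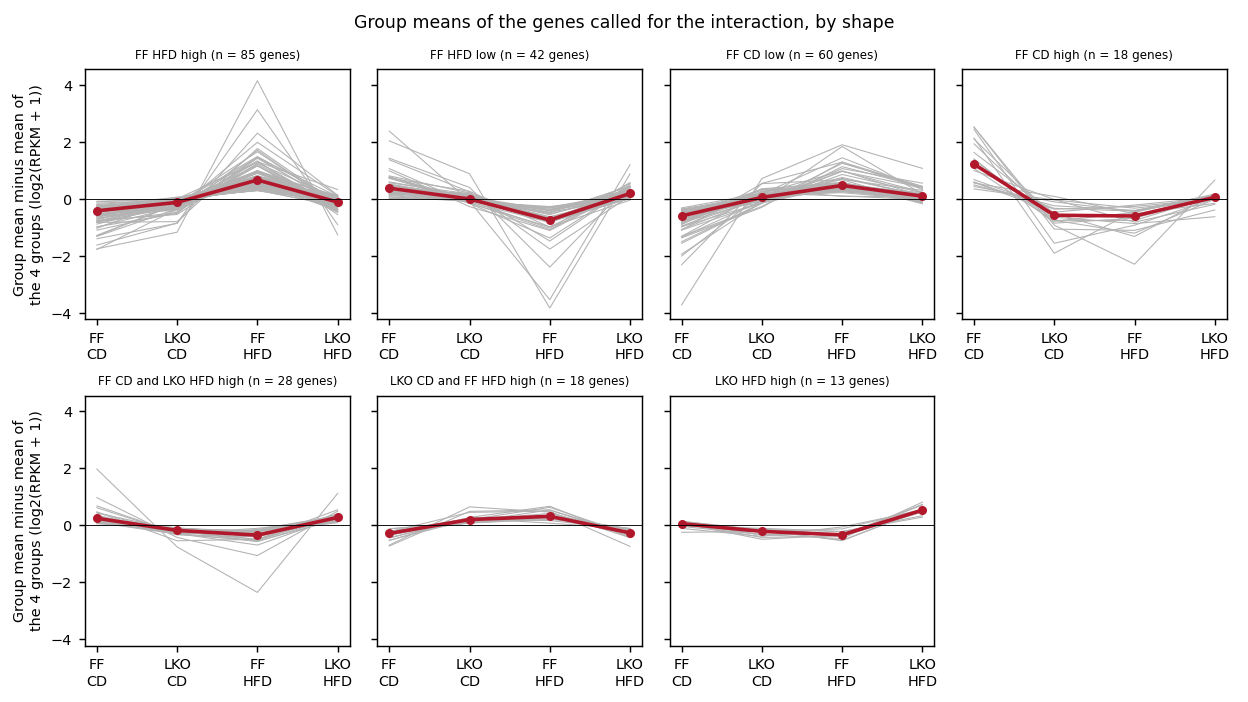
Group means (4 groups on the horizontal axis) of the called genes in each pattern held by at least 5 genes, as log2(RPKM + 1) minus the mean of the 4 groups (vertical axis), with a grey line per gene and a red line for the median. The 85 genes high in FF HFD and the 60 low in FF CD are the 2 most frequent patterns, and in both the LKO groups lie close to each other.

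Promoter sequences are shown for 5 genes, 1 from each of 5 patterns, to set their start regions side by side. They are the 250 bases before the RefSeq start (GRCm38.p6), written 5' to 3' on the strand of the gene, for C8b (chr4:104766067-104766316, plus strand, low in FF HFD), Mup7 (chr4:60070476-60070725, minus strand, high in FF CD), Selenbp2 (chr3:94693323-94693572, plus strand, high in FF CD and LKO HFD), Cyp2b9 (chr7:26173159-26173408, plus strand, high in FF HFD) and Acot3 (chr12:84051894-84052143, plus strand, low in FF CD). Capitals mark a match, on either strand, to AGGTCA, a motif bound by many nuclear receptors.
C8b: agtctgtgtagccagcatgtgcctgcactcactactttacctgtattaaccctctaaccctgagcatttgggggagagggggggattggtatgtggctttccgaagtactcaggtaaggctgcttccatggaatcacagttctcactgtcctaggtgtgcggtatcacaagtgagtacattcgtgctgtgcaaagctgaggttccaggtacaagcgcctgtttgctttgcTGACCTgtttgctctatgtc
Mup7: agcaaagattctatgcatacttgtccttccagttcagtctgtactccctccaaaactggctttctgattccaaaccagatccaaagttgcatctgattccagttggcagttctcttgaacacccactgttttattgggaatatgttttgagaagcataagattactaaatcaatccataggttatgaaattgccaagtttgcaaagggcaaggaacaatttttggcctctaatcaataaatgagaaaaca
Selenbp2: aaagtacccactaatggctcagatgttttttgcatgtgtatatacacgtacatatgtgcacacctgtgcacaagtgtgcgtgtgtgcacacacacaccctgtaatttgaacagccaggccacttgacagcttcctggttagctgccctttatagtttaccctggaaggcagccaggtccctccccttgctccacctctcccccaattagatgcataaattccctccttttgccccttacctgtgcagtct
Cyp2b9: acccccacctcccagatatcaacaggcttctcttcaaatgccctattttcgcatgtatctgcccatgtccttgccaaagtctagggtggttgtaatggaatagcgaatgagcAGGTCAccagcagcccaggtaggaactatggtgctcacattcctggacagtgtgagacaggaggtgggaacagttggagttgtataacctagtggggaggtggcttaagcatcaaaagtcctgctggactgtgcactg
Acot3: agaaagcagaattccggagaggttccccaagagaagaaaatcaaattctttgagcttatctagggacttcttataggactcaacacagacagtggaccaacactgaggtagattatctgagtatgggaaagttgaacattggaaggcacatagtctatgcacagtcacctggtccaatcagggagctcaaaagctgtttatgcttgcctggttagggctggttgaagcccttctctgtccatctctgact
AGGTCA was found in C8b, on the reverse strand with its first base 20 bases before the start, and in Cyp2b9, 138 bases before it. No match to TTCNNNGAA, the STAT5 motif, to CACGTG, the E-box, or to TCACNCCAC, a sterol element, lay in these 5 windows, and the motifs do not overlap in their letters. Of all 27025 RefSeq mouse promoters of this length, 13.8% hold AGGTCA, 7.18% TTCNNNGAA, 6.05% CACGTG and 1.04% TCACNCCAC. A match to these letters is a description of the window. Promoters were matched for 81 of the 105 genes called higher and 129 of the 166 called lower, under 80% of each, so no comparison of motifs between the lists was made.

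Genes low in FF HFD mice (42 called, median diet change -1.13 in FF mice and 0.14 in LKO mice) included 9 male-biased genes of the growth hormone and STAT5 programme. Hsd3b5, a steroid dehydrogenase of male mouse liver (chr3:98618634-98630252, minus strand, GRCm38), was 154, 96.6, 151 and 129 in FF CD mice, 95.4, 30.7, 74.3 and 52 in LKO CD mice, 3.94, 0.0478, 0.0711, 2.26 and 2.24 in FF HFD mice, and 73.5, 44.3, 61.1, 64 and 51 in LKO HFD mice (RPKM). All FF HFD mice lay below every other mouse, FF CD mice lay above every LKO mouse, and the LKO HFD mice lay within the range of the LKO CD mice. The interaction was 5.86 ± 0.56 (SE, adjusted p = 1.76e-05) on the log2 scale, with a diet change of -5.86 (adjusted p = 1.87e-07) in FF mice and -0.01 (adjusted p = 0.995) in LKO mice. Serpina1e, of the alpha-1-antitrypsin family (chr12:103946931-103958975, minus strand), was 3169, 3272, 5356 and 3311 in FF CD mice, 1125, 607, 940.3 and 312 in LKO CD mice, 190.3, 17.5, 52.1, 77.4 and 57.7 in FF HFD mice, and 1301, 1656, 1573, 1867 and 1789 in LKO HFD mice (RPKM). Its groups fell into 4 levels without overlap, in the order FF CD, LKO HFD, LKO CD and FF HFD. The interaction was 7.19 ± 0.66 (SE, adjusted p = 1.38e-05), and the genotype difference was -2.46 (adjusted p = 0.0397) on CD and 4.73 (adjusted p = 5.57e-06) on HFD, both called and opposite. Serpina1e has near-identical copies, among which the handling of reads is not given in the sources used here.

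Cyp7b1 and Egfr shared the FF HFD low pattern. Cyp7b1, the oxysterol 7-alpha-hydroxylase of the alternative bile acid pathway (chr3:18071950-18243338, minus strand), was 128, 138, 163 and 108 in FF CD mice, 63.8, 42.6, 66.4 and 50.6 in LKO CD mice, 50.9, 21.5, 20.4, 36.1 and 31.2 in FF HFD mice, and 66.9, 69.2, 120.2, 88 and 93.1 in LKO HFD mice (RPKM). A single FF HFD mouse overlapped with the LKO CD mice, the other 4 lay below all mice, and LKO HFD mice overlapped with FF CD mice. The interaction was 2.72 ± 0.33 (SE, adjusted p = 0.000155). Egfr, the receptor of epidermal growth factor (chr11:16752203-16918158, plus strand), was 65, 56.5, 86.4 and 69.7 in FF CD mice, 37.7, 19, 31.6 and 30.3 in LKO CD mice, 14.4, 5.7, 12.7, 15.1 and 14.6 in FF HFD mice, and 33.7, 32.9, 48.3, 51.5 and 60.3 in LKO HFD mice (RPKM). Each FF HFD mouse lay below every other mouse, and the LKO mice on both diets lay below most FF CD mice. Its interaction was 3.03 ± 0.35 (SE, adjusted p = 0.000144). Cyp2c70, which forms muricholic acids in mice, had an interaction of 1.41 ± 0.30 (SE, adjusted p = 0.0134). That of Serpina4-ps1, listed as a pseudogene by its symbol, was 3.95 ± 0.74 (SE, adjusted p = 0.00553). Mlxipl, the carbohydrate-responsive transcription factor ChREBP, was at 0.81 ± 0.21 (SE, adjusted p = 0.0373).

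Of the 42 genes low in FF HFD, 4 encode complement components, a family looked at after the values were seen. C8b, a subunit of the membrane attack complex (chr4:104766317-104804548, plus strand), was 139.8, 136, 148 and 133 in FF CD mice, 103, 84.1, 104 and 78.2 in LKO CD mice, 38.3, 17, 19.1, 39.6 and 33.1 in FF HFD mice, and 89.4, 118, 105, 106 and 116 in LKO HFD mice (RPKM). FF HFD mice lay below all others, FF CD mice above all others, and the LKO groups overlapped. The interaction was 2.50 ± 0.28 (SE, adjusted p = 0.000126), with -2.29 in FF and 0.22 in LKO mice for the diet. C8a, the partner subunit, had an interaction of 1.56 ± 0.22 (SE, adjusted p = 0.000709) and C6, another subunit of the complex and listed among the male-biased genes, one of 2.40 ± 0.29 (SE, adjusted p = 0.000155). C9, the pore-forming component, had an interaction of 1.22 ± 0.23 (SE, adjusted p = 0.00657) but belonged to the genes high in FF CD.

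Genes high in FF CD mice (18 called, median interaction 2.73, median genotype difference -1.99 on CD and 0.61 on HFD) included 9 genes of the major urinary proteins (Mup), which carry pheromones. Mup15 (chr4:61435790-61439743, minus strand) was 255, 706, 147 and 456 in FF CD mice, 57.7, 24.4, 19.6 and 5.14 in LKO CD mice, 43.3, 6.71, 23.3, 67.3 and 62 in FF HFD mice, and 90.9, 49.2, 90.2, 41.9 and 48.6 in LKO HFD mice (RPKM). Every FF CD mouse lay above every other mouse, and the remaining 3 groups overlapped. The interaction was 4.92 ± 0.90 (SE, adjusted p = 0.0049), from a diet change of -3.36 (adjusted p = 0.00137) in FF and 1.57 (adjusted p = 0.157) in LKO mice and a genotype difference of -4.0 (adjusted p = 0.011) on CD. Mup7 (chr4:60066469-60070475, minus strand) was 7486, 8669, 5377 and 4801 in FF CD mice, 2533, 444, 802 and 130.3 in LKO CD mice, 1934, 11.3, 46.7, 787 and 675 in FF HFD mice, and 1539, 1337, 2021, 1238 and 3235 in LKO HFD mice (RPKM). FF CD mice again lay above all others, while the spread among the FF HFD and among the LKO CD mice was wide. Its interaction was 6.40 ± 1.57 (SE, adjusted p = 0.0337), that of Mup17 4.63 ± 1.03 (SE, adjusted p = 0.0188) and that of Mup12 4.29 ± 1.07 (SE, adjusted p = 0.0364). Mup genes are near-identical in sequence, so single members are uncertain. Cyp1a2, a P450 enzyme of xenobiotic metabolism, was also highest in FF CD, with an interaction of 0.84 ± 0.20 (SE, adjusted p = 0.0292).

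In the crossing pattern with FF CD and LKO HFD high (28 called, median diet change -0.59 in FF and 0.48 in LKO mice), the median diet changes of the genotypes had opposite signs. A diet change was called in both genotypes, in opposite directions, for only 4 of the 105 genes called higher. Selenbp2, a selenium-binding protein and male-biased gene (chr3:94693556-94704413, plus strand), was 150.3, 94.5, 207 and 144 in FF CD mice, 39.2, 22.2, 24.1 and 8.63 in LKO CD mice, 7.28, 3.98, 5.77, 8.27 and 6.53 in FF HFD mice, and 65.9, 65, 90.2, 38.3 and 208 in LKO HFD mice (RPKM). FF HFD mice lay below all others, FF CD mice above all LKO CD mice, and LKO HFD mice overlapped with FF CD mice and with the highest LKO CD mouse. It fell with HFD in FF mice, with a log2 change of -4.33 (adjusted p = 2.46e-06), and rose in LKO mice by 1.88 (adjusted p = 0.0221). This gave an interaction of 6.21 ± 0.57 (SE, adjusted p = 1.38e-05). Mup21 was 672, 933, 803 and 789 in FF CD mice, 374, 243, 507 and 177 in LKO CD mice, 410.3, 135, 134, 198 and 183 in FF HFD mice, and 443, 596, 442, 1001 and 518 in LKO HFD mice (RPKM). FF CD mice lay above all mice of LKO CD and FF HFD, and LKO HFD mice above 3 of 4 LKO CD mice and above all FF HFD mice. Its interaction was 2.96 ± 0.46 (SE, adjusted p = 0.00156). The largest gap was 0.43 of the range for Selenbp2 and 0.45 for Mup21, so neither pattern was clear. Itih3, a heavy chain of the inter-alpha-trypsin inhibitor made in the acute phase, had an interaction of 1.23 ± 0.27 (SE, adjusted p = 0.0184).

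Of the 30 tested genes of the male-biased list, 17 were called higher and none lower, with a median interaction of 2.50 against -0.01 over all tested genes and 0.947% of genes called higher. This list, like the others, was chosen with earlier results of these data known, so its counts are descriptions. Among the 17 are Mup7, Mup12, Mup15, Mup17, Mup20 and Mup21, near-identical genes that may share reads and are not independent members. Of the 17, 9 were low in FF HFD, 6 high in FF CD and 2 high in FF CD and LKO HFD. With HFD 23 of the 30 fell in FF mice, against 1.49% of all genes, and 1 rose in LKO mice (0.965%). Between genotypes 7 were lower in LKO on CD (0.135% of all genes) and 13 higher in LKO on HFD (0.902%). Without LKO CD mouse 4 the number called was 12, and without any other single mouse no fewer. Among regulators of this programme, Igf1, whose transcription growth hormone drives, had an interaction of 0.22 ± 0.16 (SE, adjusted p = 0.536) and Bcl6, a repressor within the male pattern, one of 1.67 ± 0.45 (SE, adjusted p = 0.0548), and neither was called. In Igf1 and Bcl6 the groups overlapped.

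**Figure D4:**
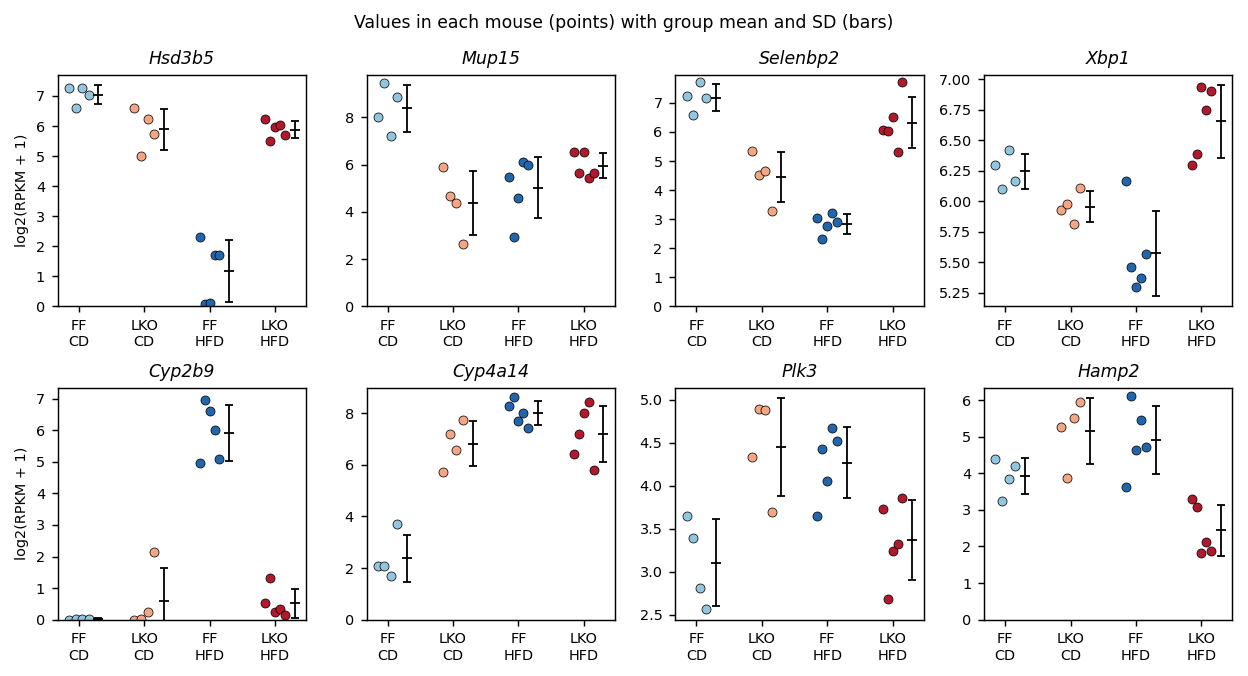
Expression of 8 genes as log2(RPKM + 1) (vertical axis) in each of the 18 mice by group (horizontal axis), with a point per mouse and the group mean with its SD beside the points, where the axes of Xbp1 and Plk3 do not start at 0. Hsd3b5 is lowest in FF HFD, Mup15 highest in FF CD, Cyp2b9 highest in FF HFD and Cyp4a14 lowest in FF CD, while Hamp2 is lowest in LKO HFD.

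Genes high in FF HFD mice (85 called, median diet change 1.06 in FF and -0.02 in LKO mice) included P450 genes of female liver. Cyp2b9, a female-biased P450 (chr7:26173411-26210661, plus strand), was 0, 0.0213, 0.0228 and 0.021 in FF CD mice, 0, 0.0189, 0.196 and 3.42 in LKO CD mice, 30.4, 125, 95.6, 63.1 and 32.7 in FF HFD mice, and 0.45, 1.48, 0.173, 0.273 and 0.109 in LKO HFD mice (RPKM). All FF HFD mice lay above all others, and the FF CD mice held at most 1 read each. With a floor of 3 reads per library for FF CD, FF HFD was at least 1131-fold higher than FF CD. The interaction was -5.99 ± 0.60 (SE, adjusted p = 2.74e-05), a fitted value that depends on the pseudocount, and the genotype difference on HFD was -5.41 (adjusted p = 6.96e-07). Cyp2a4, a steroid hydroxylase of female liver (chr7:26307169-26315088, plus strand), was 0.334, 0.136, 0.0758 and 0.481 in FF CD mice, 0.321, 0.786, 0.711 and 1.68 in LKO CD mice, 7.59, 59.7, 69, 20.6 and 23.6 in FF HFD mice, and 0.314, 2.92, 0.639, 0.693 and 0.149 in LKO HFD mice (RPKM). The same order was seen, with every FF HFD mouse above the rest. The interaction was -4.58 ± 0.66 (SE, adjusted p = 0.000709). Cyp2b9 and Cyp2a4 have close paralogs (Cyp2b13 and Cyp2a5), so their reads may be shared. Of the 15 tested female-biased genes, 7 were called lower and none higher (1.5% of all genes were called lower), with a median interaction of -1.35, and without FF CD mouse 3 or LKO CD mouse 4 the count was 5. Only 15 of the 28 listed genes passed the filter of 0.5 RPKM, which a gene such as Cyp2b9 passes through a single high group, and with no filter the median over the 28 was -0.25.

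Genes of fat uptake and storage were also found here. Cd36, a fatty acid translocase (chr5:17781690-17888801, minus strand), was 4.58, 3.88, 2.33 and 5.69 in FF CD mice, 7.12, 17.5, 9.22 and 19.4 in LKO CD mice, 55.4, 89.1, 71.3, 63.6 and 56.6 in FF HFD mice, and 37.1, 28.4, 11.6, 6.98 and 17.1 in LKO HFD mice (RPKM). FF HFD mice lay above all others, FF CD mice below all others, and the LKO groups overlapped. The interaction was -3.30 ± 0.53 (SE, adjusted p = 0.00186). Cidec, which fuses lipid droplets (chr6:113424634-113435760, minus strand), was 0.479, 1.0, 0.633 and 0.764 in FF CD mice, 1.01, 5.48, 0.719 and 2.26 in LKO CD mice, 10.1, 35.8, 47.5, 22.2 and 25.1 in FF HFD mice, and 10.8, 2.64, 5.43, 2.18 and 6.12 in LKO HFD mice (RPKM). A single FF HFD mouse lay below the highest LKO HFD mouse. The interaction was -2.95 ± 0.61 (SE, adjusted p = 0.0114), with a diet change of 3.93 (adjusted p = 9.94e-06) in FF and 0.98 (adjusted p = 0.188) in LKO mice. Mogat1, a monoacylglycerol acyltransferase (chr1:78510991-78538173, plus strand), was 0.31, 0.397, 0.0708 and 0.588 in FF CD mice, 0.433, 1.0, 0.40 and 0.883 in LKO CD mice, 4.31, 5.89, 5.34, 5.5 and 5.06 in FF HFD mice, and 3.3, 0.70, 0.712, 0.295 and 1.12 in LKO HFD mice (RPKM). The FF HFD mice all lay above the rest. The interaction was -1.93 ± 0.34 (SE, adjusted p = 0.00368). Of the 27 tested lipid droplet and uptake genes, 7 were called lower (Plin4, Cidec, Cd36, Fabp2, Pparg, Hsd17b13 and Apoa4) and none higher. Over all tested genes 1.5% were called lower, and the median interaction of the list was -0.55. Of the 7, 4 were high in FF HFD and 3 low in FF CD. The number called was 4 when mouse 2 or 4 of LKO CD was left out.

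Fth1, Lgals1 and others were high in FF HFD too. Fth1, the ferritin heavy chain (chr19:9980598-9985098, plus strand), was 538, 602, 451 and 505 in FF CD mice, 592, 778, 660.3 and 776 in LKO CD mice, 926, 997, 980.5, 784 and 822 in FF HFD mice, and 654, 640.5, 584, 662 and 668 in LKO HFD mice (RPKM). FF HFD mice lay above all others by a narrow margin over the highest LKO CD mouse. The interaction was -0.90 ± 0.16 (SE, adjusted p = 0.00368). Lgals1, which encodes galectin-1, was 7.48, 10.2, 4.22 and 8.62 in FF CD mice, 12.7, 29.4, 11.3 and 20.6 in LKO CD mice, 46.9, 73.2, 75.7, 42.5 and 52 in FF HFD mice, and 37.1, 19.4, 13.6, 8.44 and 27.5 in LKO HFD mice (RPKM). Again the FF HFD mice exceeded all others. The interaction was -2.67 ± 0.50 (SE, adjusted p = 0.00546). Cdkn1a, the cell cycle inhibitor p21, had an interaction of -1.45 ± 0.32 (SE, adjusted p = 0.0182). Nqo1, a quinone reductase under NRF2, was at -1.57 ± 0.25 (SE, adjusted p = 0.00156). Cyp3a59, a xenobiotic P450, was at -1.69 ± 0.31 (SE, adjusted p = 0.00462). Pdk4, the kinase that inhibits pyruvate dehydrogenase, had an interaction of -1.39 ± 0.34 (SE, adjusted p = 0.0299).

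Matrix genes with a called interaction were also lower. Col3a1 was 2.6, 3.54, 3.66 and 4.56 in FF CD mice, 8.21, 6.49, 2.65 and 4.36 in LKO CD mice, 6.42, 14.7, 11.7, 8.57 and 8.07 in FF HFD mice, and 5.43, 5.3, 2.65, 2.06 and 2.84 in LKO HFD mice (RPKM). The FF HFD mice overlapped with 2 LKO CD mice and lay above all LKO HFD mice. Its interaction was -1.66 ± 0.39 (SE, adjusted p = 0.0263), that of Col1a1 -1.51 ± 0.38 (SE, adjusted p = 0.0364) and that of Tagln, an actin-binding protein of contractile cells, -0.77 ± 0.20 (SE, adjusted p = 0.0427). All 16 tested stellate cell and matrix markers had an interaction below 0, with a median of -0.56, and the 3 named here were called (1.5% of all genes were called lower). None was called without FF CD mouse 3, FF HFD mouse 2 or LKO CD mouse 2. Their summed RPKM was 104 to 155 in FF CD, 115 to 170.5 in LKO CD, 138 to 202 in FF HFD and 95.7 to 181 in LKO HFD mice. The part of stellate cell number in these values was not tested. Of the 13 endothelial markers all had an interaction below 0 and none was called, with summed RPKM of 29.9 to 69.5 in FF CD, 23.1 to 65.4 in LKO CD, 76.2 to 126 in FF HFD and 60.6 to 84.9 in LKO HFD mice. None of 18 Kupffer cell and macrophage markers (median interaction -0.10) and none of 4 lymphocyte and neutrophil markers (0.07) was called.

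Genes low in FF CD mice (60 called, median diet change 1.08 in FF and 0.02 in LKO mice, median genotype difference 0.68 on CD and -0.40 on HFD) included 12 of the fatty acid oxidation list. Cyp4a14, a fatty acid omega-hydroxylase and PPAR-alpha target (chr4:115486200-115496142, minus strand), was 3.18, 3.22, 2.19 and 12.1 in FF CD mice, 51.9, 146, 95.1 and 213 in LKO CD mice, 312, 392, 206, 253 and 169 in FF HFD mice, and 84.3, 146, 257, 342 and 55 in LKO HFD mice (RPKM). No FF CD mouse reached any mouse of the other groups, which overlapped. The interaction was -5.26 ± 0.72 (SE, adjusted p = 0.000475), with a genotype difference of 4.43 (adjusted p = 0.000874) on CD and -0.83 (adjusted p = 0.359) on HFD. Cyp4a10 (chr4:115518264-115533649, plus strand), a related hydroxylase whose reads may be shared with Cyp4a31 and Cyp4a32, was 27.1, 21.4, 5.55 and 33.3 in FF CD mice, 128, 218, 86.7 and 156 in LKO CD mice, 194, 249.8, 244, 267 and 224 in FF HFD mice, and 161, 98.1, 117, 165 and 119 in LKO HFD mice (RPKM). FF CD mice lay below all others, and FF HFD mice above all LKO HFD mice. Its interaction was -3.71 ± 0.50 (SE, adjusted p = 0.000417). Acot3, a peroxisomal acyl-CoA thioesterase (chr12:84052144-84060402, plus strand), was 3.75, 1.81, 0.513 and 2.48 in FF CD mice, 7.11, 24.3, 7.65 and 15.4 in LKO CD mice, 32.4, 47.4, 29.5, 18.5 and 31.5 in FF HFD mice, and 14.6, 9.43, 22.9, 23.9 and 6.48 in LKO HFD mice (RPKM). No FF CD mouse reached another group. The interaction was -3.26 ± 0.57 (SE, adjusted p = 0.00377).

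Genes of mitochondrial and peroxisomal steps had called interactions as well. Acadm, the medium-chain acyl-CoA dehydrogenase, was 106, 99.7, 91.2 and 89.8 in FF CD mice, 130, 161, 116 and 155 in LKO CD mice, 195, 223, 159.8, 179 and 162 in FF HFD mice, and 158, 144, 153, 159.8 and 140.3 in LKO HFD mice (RPKM). The FF CD mice were the lowest, and FF HFD mice overlapped with LKO mice. The interaction was -0.80 ± 0.16 (SE, adjusted p = 0.00968). Ehhadh, the peroxisomal bifunctional enzyme, had an interaction of -1.11 ± 0.24 (SE, adjusted p = 0.0159). Acot2, a mitochondrial thioesterase, was at -2.03 ± 0.37 (SE, adjusted p = 0.00508). Vnn1, a pantetheinase under PPAR-alpha, was at -2.21 ± 0.41 (SE, adjusted p = 0.00567). All 45 tested genes of the list had an interaction below 0, 14 of them called (1.5% of all genes were called lower), with a median of -0.58. Of the 14, 12 were low in FF CD and 2 high in FF HFD. With HFD 32 of the 45 rose in FF mice, against 5.11% of all genes, and none in LKO mice (0.965%), while 3 were higher in LKO than FF mice on CD (0.0902%). The number called was 11 when FF CD mouse 3, FF HFD mouse 2 or mouse 2 or 4 of LKO CD was left out.

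Xenobiotic enzymes and a nuclear receptor were also low in FF CD. Cyp2c38 (chr19:39389556-39463075, minus strand) was 8.74, 8.68, 4.3 and 11.3 in FF CD mice, 16, 28.8, 24.6 and 30.5 in LKO CD mice, 35.6, 56.6, 52.6, 36.5 and 36.1 in FF HFD mice, and 23.7, 23.5, 24.9, 25.2 and 16.6 in LKO HFD mice (RPKM). The FF groups lay apart from each other with all LKO mice of both diets between them. The interaction was -2.40 ± 0.32 (SE, adjusted p = 0.000379), with a genotype difference of 1.51 (adjusted p = 0.00732) on CD and -0.89 (adjusted p = 0.0252) on HFD. Gsta1, a glutathione S-transferase (chr9:78230656-78242684, plus strand), was 0.508, 0.799, 0.414 and 0.383 in FF CD mice, 2.64, 9.67, 4.05 and 3.44 in LKO CD mice, 18.2, 39.2, 41.4, 7.96 and 12.3 in FF HFD mice, and 5.4, 1.74, 5.61, 11.4 and 7.32 in LKO HFD mice (RPKM). Each FF CD mouse lay below all other mice. The interaction was -3.51 ± 0.63 (SE, adjusted p = 0.00442). Gsta2, its close paralog with which reads may be shared, had an interaction of -2.45 ± 0.52 (SE, adjusted p = 0.0134) and Gstm1 one of -1.19 ± 0.24 (SE, adjusted p = 0.0107). Pparg, the receptor PPAR-gamma (chr6:115360951-115490399, plus strand), was 2.39, 2.23, 1.62 and 3.14 in FF CD mice, 4.04, 9.87, 5.14 and 8.79 in LKO CD mice, 4.54, 9.02, 10.4, 7.46 and 8.58 in FF HFD mice, and 8.46, 5.3, 4.36, 3.35 and 5.0 in LKO HFD mice (RPKM). The FF CD mice were lowest by a narrow margin. The interaction was -1.72 ± 0.35 (SE, adjusted p = 0.0108). Of 34 tested transferases and NRF2 targets, 7 were called lower and none higher (median -0.51), and without FF CD mouse 3 or LKO CD mouse 4 the count was 5. Of 23 genes of xenobiotic P450 enzymes and their regulators, 4 were called lower (Cyp2c38, Cyp2c39, Cyp3a59 and Nr1i2, which encodes the receptor PXR) and Cyp1a2 higher. For both lists, the shares over all tested genes were 1.5% called lower and 0.947% called higher.

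Abcc3 and Hexa were further genes low in FF CD. Abcc3, an exporter of conjugated bile acids, was 11.9, 7.19, 10.6 and 18.4 in FF CD mice, 14.9, 30.2, 23.7 and 25.7 in LKO CD mice, 48.6, 56.8, 57.9, 53.9 and 39.8 in FF HFD mice, and 34.3, 37.2, 32.6, 28.3 and 21.1 in LKO HFD mice (RPKM). The FF HFD mice were the highest, and FF CD mice overlapped with a single LKO CD mouse. The interaction was -1.69 ± 0.31 (SE, adjusted p = 0.00558). Hexa, a lysosomal hexosaminidase of ganglioside breakdown, had an interaction of -0.92 ± 0.22 (SE, adjusted p = 0.0269) and Arsa, arylsulfatase A, one of -0.85 ± 0.25 (SE, adjusted p = 0.0729) that was not called. Of the 32 tested sphingolipid genes Hexa alone was called, close to the 2.44% of all genes, with a median of -0.13. Of the 24 bile acid genes 2 were called higher (Cyp7b1 and Cyp2c70) and 2 lower (Slco1a4 and Abcc3), against 0.947% and 1.5% of all genes. Slco1a1, an organic anion transporter of male liver, had an interaction of 2.59 ± 0.78 (SE, adjusted p = 0.0861), which was not called.

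The reverse crossing pattern, with LKO CD and FF HFD high, held 18 called genes (median diet change 0.69 in FF and -0.40 in LKO mice). Plk3, a polo-like kinase of the stress response (chr4:117128655-117133963, minus strand), was 11.6, 9.52, 6.04 and 4.92 in FF CD mice, 19.2, 28.6, 28.4 and 11.9 in LKO CD mice, 11.6, 20.5, 15.6, 24.6 and 21.9 in FF HFD mice, and 12.3, 5.45, 8.48, 9.05 and 13.5 in LKO HFD mice (RPKM). LKO CD and FF HFD mice lay above most mice of the other groups, with some overlap on each side. It rose with HFD in FF mice by 1.16 (adjusted p = 0.00858) and fell in LKO mice, with a log2 change of -1.08 (adjusted p = 0.0443), which gave an interaction of -2.24 ± 0.41 (SE, adjusted p = 0.00486). Slco1a4, a transporter of organic anions, was 5.59, 2.71, 7.57 and 8.5 in FF CD mice, 15, 14.5, 10.3 and 19.7 in LKO CD mice, 11.1, 34.1, 6.12, 23 and 13.9 in FF HFD mice, and 10.4, 14.7, 6.22, 4.89 and 6.08 in LKO HFD mice (RPKM). Its groups overlapped and the interaction was -2.08 ± 0.55 (SE, adjusted p = 0.0488).

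Genes that stood apart in LKO HFD mice were fewer (13 high, with a median diet change of 0.78 in LKO and -0.41 in FF mice) and included genes of protein folding and the acute phase. Xbp1, a transcription factor of the unfolded protein response (chr11:5520659-5525893, plus strand), was 77.6, 67.7, 84.6 and 70.7 in FF CD mice, 59.8, 61.9, 55.2 and 68.2 in LKO CD mice, 70.9, 43.1, 38.3, 40.3 and 46.5 in FF HFD mice, and 77.7, 82.5, 122, 106 and 119 in LKO HFD mice (RPKM). LKO HFD mice lay above all LKO CD and all FF HFD mice and overlapped with FF CD mice. It rose with HFD in LKO mice by 0.70 (adjusted p = 0.0294) and fell in FF mice, with -0.67 (adjusted p = 0.00746), and the interaction was 1.37 ± 0.23 (SE, adjusted p = 0.00275). Sdf2l1, of an endoplasmic reticulum chaperone complex, was 19.4, 12.6, 12 and 7.62 in FF CD mice, 12.1, 9.48, 9.27 and 8.92 in LKO CD mice, 15.1, 7.27, 6.5, 10.3 and 7.37 in FF HFD mice, and 16.6, 18.7, 34.9, 16.2 and 35.8 in LKO HFD mice (RPKM). LKO HFD mice overlapped only with the highest FF CD mouse. The interaction was 1.57 ± 0.39 (SE, adjusted p = 0.0361) for Sdf2l1 and 0.63 ± 0.17 (SE, adjusted p = 0.0488) for Calr, the chaperone calreticulin. Manf, a secreted stress-response factor, was instead high in FF CD and LKO HFD, with an interaction of 1.41 ± 0.36 (SE, adjusted p = 0.0386). Of 34 tested genes of endoplasmic reticulum and integrated stress, these 4 were called higher and none lower (median 0.51), against 0.947% of all genes called higher. The number called ranged from 1 (for 9 of the 18 mice) to 12 when each mouse was left out. Asns, asparagine synthetase, at 1.78 (adjusted p = 0.062) and Creld2, a chaperone-associated protein, at 1.77 (adjusted p = 0.16) were not called.

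Fibrinogen chains were part of the acute phase group. Fgb (chr3:83040141-83049863, minus strand) was 1766, 2089, 1857 and 2048 in FF CD mice, 1733, 1796, 1724 and 1662 in LKO CD mice, 1402, 1228, 1187, 1577 and 1310.1 in FF HFD mice, and 1654, 2453, 2863, 2761 and 3068 in LKO HFD mice (RPKM). Fgb belonged to the genes low in FF HFD. The FF HFD mice were the lowest, and all LKO HFD mice but 1 lay above all other mice. The interaction was 1.07 ± 0.21 (SE, adjusted p = 0.00734), that of Fga 1.07 ± 0.23 (SE, adjusted p = 0.0134) and that of Fgg 1.06 ± 0.24 (SE, adjusted p = 0.0193). Lrg1, a secreted glycoprotein of the acute phase, was 88.9, 179, 85 and 75.6 in FF CD mice, 62.1, 81.3, 52.8 and 79.2 in LKO CD mice, 107, 78, 60.7, 67.9 and 72.3 in FF HFD mice, and 82.1, 178, 216, 132 and 251 in LKO HFD mice (RPKM). Most LKO HFD mice were high and the groups overlapped, with an interaction of 1.63 ± 0.41 (SE, adjusted p = 0.0364). Of 32 tested acute phase and iron genes, 4 were called higher (Fga, Fgb, Fgg and Itih3) and 2 lower (Hamp2 and Fth1), against 0.947% and 1.5% of all genes. The median was 0.27, and it ranged from 0.018 without FF CD mouse 2 to 0.43 without FF CD mouse 4. Saa2, an inducible serum amyloid, had an interaction of 2.26 ± 1.80 (SE, adjusted p = 0.57), which was not called and was 0.85 without FF CD mouse 2.

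Only Hamp2 and G6pc were low in LKO HFD among the called genes. Hamp2, a hepcidin family member (chr7:30922372-30924681, minus strand), was 20, 8.54, 13.3 and 17.4 in FF CD mice, 37.1, 13.6, 44.8 and 61.2 in LKO CD mice, 11.3, 68.3, 23.7, 42.7 and 25.2 in FF HFD mice, and 8.92, 7.38, 2.56, 3.38 and 2.66 in LKO HFD mice (RPKM). LKO HFD mice lay below all others except for 1 overlapping FF CD mouse. It fell with HFD in LKO mice, with a log2 change of -2.71 (adjusted p = 0.0108), and the change in FF mice was 0.98 (adjusted p = 0.146). The interaction was -3.69 ± 0.66 (SE, adjusted p = 0.00427). G6pc, the catalytic subunit of glucose-6-phosphatase (chr11:101367561-101377903, plus strand), was 253, 221, 256 and 197 in FF CD mice, 170.5, 113, 132 and 136 in LKO CD mice, 141, 133, 149, 201 and 207 in FF HFD mice, and 63.2, 45.9, 48.9, 49.1 and 37.1 in LKO HFD mice (RPKM). LKO HFD mice lay below all others, and FF CD mice overlapped with FF HFD mice. Every LKO CD mouse lay below every FF CD mouse. The interaction was -0.99 ± 0.23 (SE, adjusted p = 0.0256). The diet change was -1.48 (adjusted p = 0.000374) in LKO mice, and the genotype difference on HFD was -1.74 (adjusted p = 3.06e-06). Changes in the same direction, neither called, were -0.49 for HFD in FF mice (adjusted p = 0.0383) and -0.75 between genotypes on CD (adjusted p = 0.0824). Igfbp1, which like G6pc is repressed by insulin, had an interaction of -1.45 ± 0.42 (SE, adjusted p = 0.0707) and was not called.

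Within the signalling module around the deleted subunit, 1 of 14 tested PP6 and AMPK genes was called, where 2.44% of all genes were. Camkk2, a kinase that phosphorylates AMPK (chr5:122731170-122779409, minus strand), was 1.22, 1.01, 1.17 and 0.935 in FF CD mice, 1.03, 1.3, 0.941 and 1.26 in LKO CD mice, 1.7, 1.34, 0.803, 1.28 and 1.27 in FF HFD mice, and 1.89, 2.34, 3.81, 2.92 and 2.58 in LKO HFD mice (RPKM). LKO HFD mice lay above all others, at low levels throughout. The interaction was 0.66 ± 0.18 (SE, adjusted p = 0.0498), with a diet change of 0.78 (adjusted p = 0.00833) in LKO mice. Ankrd52, a scaffold subunit of PP6, had an interaction of 0.50 ± 0.25 (SE, adjusted p = 0.333), which was not called.

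Lipogenic, desaturase and sterol genes included 2 with a called interaction, and 2.44% of all tested genes were called. Fasn, the fatty acid synthase, had an interaction of 0.03 ± 0.47 (SE, adjusted p = 0.985) and Acacb, acetyl-CoA carboxylase 2, one of 0.06 ± 0.30 (SE, adjusted p = 0.942), and the sign of both turned on rescaling to the same sum. Fasn fell with HFD in FF mice (log2 change of -1.09 (adjusted p = 0.0267)), and its change in LKO mice was -1.06 (adjusted p = 0.0754). Scd1, the stearoyl-CoA desaturase, had an interaction of -1.22 ± 0.42 (SE, adjusted p = 0.132) and Elovl5, an elongase, one of -1.21 ± 0.37 (SE, adjusted p = 0.0932). Of 27 lipogenesis and triglyceride genes Mlxipl was called higher and Mogat1 lower (median -0.36), and of 15 desaturases and elongases none was called (median -0.29). The lipogenesis median was -0.16 without FF CD mouse 4, and the desaturase median -0.19 without FF CD mouse 3. Of 27 sterol genes none was called (median 0.30, from 0.066 without LKO CD mouse 3 to 0.47 without LKO HFD mouse 4), with Insig2, which retains SREBP in the endoplasmic reticulum, at -1.27 (adjusted p = 0.0671).

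**Figure D5:**
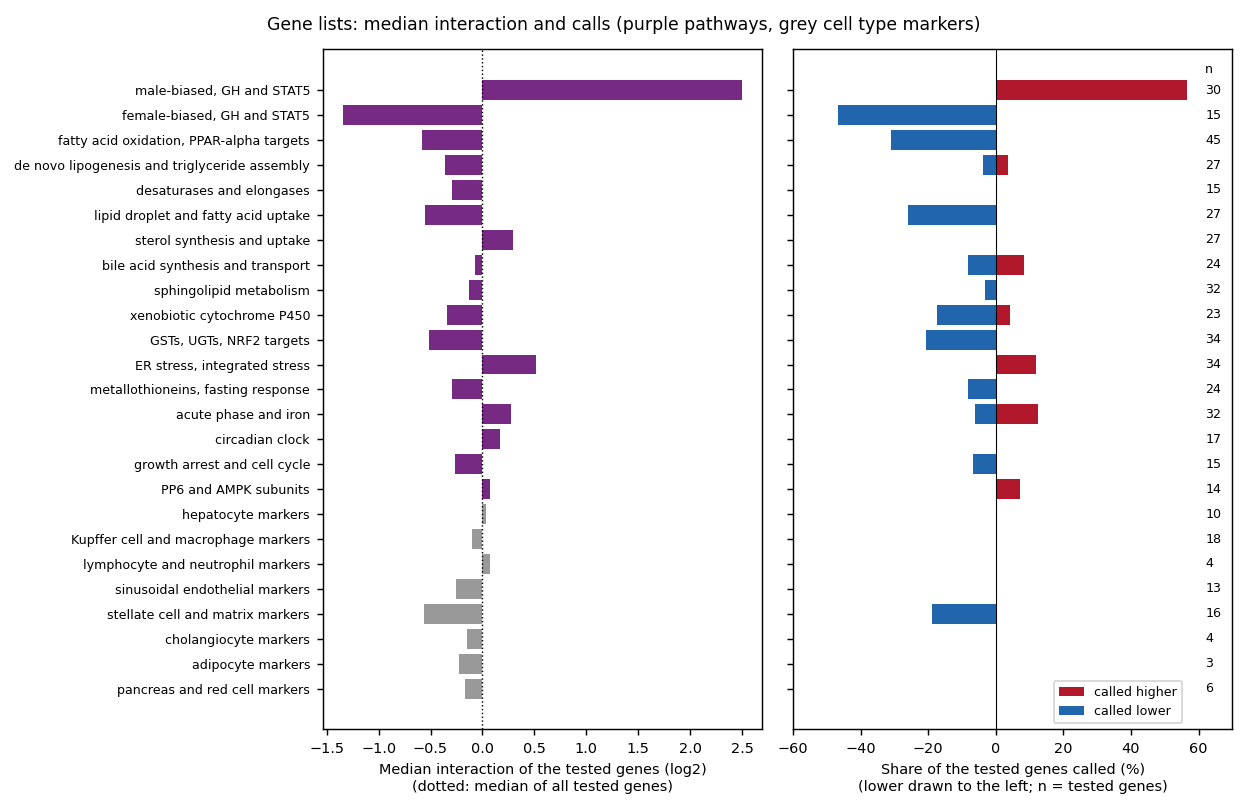
Median interaction of each list of functions (purple) or cell type markers (grey) on the log2 scale (left), and the share of its tested genes in percent that were called higher (red) or lower (blue, drawn to the left of 0), with the number tested at the right edge. Among genes that passed the filter, the male-biased list has the highest median (2.50) and the female-biased list the lowest (-1.35, which was -0.25 with no filter).

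Further lists held at most 2 called genes each, where 2.44% of all tested genes were called. None of 17 clock genes was called (median 0.17, and 0.10 with no filter), with Nr1d1 at 0.67 (adjusted p = 0.197) and Per1 at -0.38 (adjusted p = 0.657). Cdkn1a alone was called among 15 growth arrest genes (median -0.26), where Gadd45a was at 0.75 (adjusted p = 0.315), and it and G6pc were called among 24 fasting, glucocorticoid and metallothionein genes (median -0.29, and -0.095 without FF HFD mouse 4). Hepatocyte markers had a median of 0.03, which became -0.04 on rescaling to the same sum, with Cps1 at 0.92 (adjusted p = 0.0596) and Serpina1c at 0.84 (adjusted p = 0.0545). Apart from the stellate cell and matrix genes above, no gene listed as a marker of another cell type was called. Among them were Ctss at -0.30, Clec4f at 0.29, S100a8 at 0.42, S100a9 at -0.06, Lyve1 at -0.85, Pecam1 at -0.53, Spp1 at -0.50, Sox9 at 0.49, Pck1 at -0.31, Lipe at -0.05, Cela1 at 1.28 and Hba-a2 at -0.28. Pck1, listed as an adipocyte marker, averaged 768 RPKM and is also in the fasting list, so that marker list does not describe adipocytes alone. The medians were -0.15 over 4 cholangiocyte, -0.22 over 3 adipocyte and -0.16 over 6 pancreas and red cell markers, and these depended on single mice. Leaving out each mouse gave -0.29 to -0.032 for cholangiocyte and -0.34 to -0.037 for adipocyte markers, and the pancreas and red cell median was -0.76 when mouse 1 of LKO CD was left out and 0.33 for mouse 4.

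Of the 61 called genes named here, 43 were called without each of the 18 mice in turn and 18 were not. Mup17 was not called without LKO CD mouse 4 (adjusted p = 0.0526) and G6pc not without LKO CD mouse 4 (adjusted p = 0.0549). Cdkn1a was not called without FF CD mouse 3 or LKO CD mouse 2 (adjusted p = 0.0519). Hexa was not called without FF CD mouse 3, FF HFD mouse 2 or LKO CD mouse 2 or 4 (adjusted p from 0.0564 to 0.0752), Col3a1 without FF CD mouse 1 or 3, FF HFD mouse 2, LKO CD mouse 2 or LKO HFD mouse 3 (adjusted p from 0.0501 to 0.0711) and Cyp1a2 without FF CD mouse 1, 3 or 4, FF HFD mouse 2 or LKO CD mouse 2 or 4 (adjusted p from 0.0504 to 0.0749). Mup7 lost its call without FF CD mouse 1, 2 or 3, FF HFD mouse 3, LKO CD mouse 2 or 4 or LKO HFD mouse 3 or 5 (adjusted p from 0.0547 to 0.087), Mup12 without FF CD mouse 1, 2 or 3, FF HFD mouse 2 or 3, LKO CD mouse 2 or 4 or LKO HFD mouse 3 or 5 (adjusted p from 0.0501 to 0.0945) and Pdk4 without FF CD mouse 3, FF HFD mouse 2 or 4, LKO CD mouse 1, 2 or 4 or LKO HFD mouse 2 or 4 (adjusted p from 0.0501 to 0.0828). The call of Sdf2l1 ended without FF CD mouse 1, 2 or 3, FF HFD mouse 2, 3 or 5, LKO CD mouse 2, 3 or 4 or LKO HFD mouse 3 or 5 (adjusted p from 0.0517 to 0.0835). For Manf this held without FF CD mouse 1 or 2, FF HFD mouse 2, 3, 4 or 5, LKO CD mouse 1, 2 or 4 or LKO HFD mouse 3 or 5 (adjusted p from 0.0563 to 0.0907). For Lrg1 it held without FF CD mouse 1, 2 or 3, FF HFD mouse 2, 3, 4 or 5, LKO CD mouse 1, 2, 3 or 4 or LKO HFD mouse 2, 3 or 5 (adjusted p from 0.0518 to 0.0659). The call of Slco1a4 ended without FF CD mouse 1, 2 or 3, FF HFD mouse 2, 4 or 5, LKO CD mouse 1, 2 or 4 or LKO HFD mouse 3, 4 or 5 (adjusted p from 0.0695 to 0.118). For Mlxipl this held without FF CD mouse 1 or 3, FF HFD mouse 2, 3, 4 or 5, LKO CD mouse 1, 2 or 4 or LKO HFD mouse 3, 4 or 5 (adjusted p from 0.0565 to 0.101). For Tagln it held without FF CD mouse 1, 2, 3 or 4, FF HFD mouse 2, 4 or 5, LKO CD mouse 1, 2 or 4 or LKO HFD mouse 1 or 5 (adjusted p from 0.0519 to 0.101). The call of Col1a1 ended without FF CD mouse 1, 2 or 3, FF HFD mouse 2, 3, 4 or 5, LKO CD mouse 1, 2 or 4 or LKO HFD mouse 3, 4 or 5 (adjusted p from 0.0525 to 0.0989). For Calr this held without FF CD mouse 1, 2, 3 or 4, FF HFD mouse 2, 3, 4 or 5, LKO CD mouse 1, 2, 3 or 4 or LKO HFD mouse 2, 3 or 5 (adjusted p from 0.0519 to 0.118). For Camkk2 it held without FF CD mouse 1, 2, 3 or 4, FF HFD mouse 2, 3, 4 or 5, LKO CD mouse 1, 2, 3 or 4 or LKO HFD mouse 2, 3, 4 or 5 (adjusted p from 0.0524 to 0.113). In the other direction, Elovl5 was called without FF CD mouse 2 (adjusted p = 0.0329), Igfbp1 without FF HFD mouse 1 (adjusted p = 0.00544) and Slco1a1 without FF HFD mouse 1 or 4 (adjusted p from 0.0326 to 0.0432). Insig2 was called without FF CD mouse 2, LKO CD mouse 3 or LKO HFD mouse 3 (adjusted p from 0.0256 to 0.0443), Arsa without FF HFD mouse 5, LKO CD mouse 3 or LKO HFD mouse 1 (adjusted p from 0.0384 to 0.0493) and Asns without LKO HFD mouse 1 or 4 or LKO CD mouse 1 (adjusted p from 0.0211 to 0.0395). Cps1 was called without FF HFD mouse 4 or LKO CD mouse 1 (adjusted p from 0.0303 to 0.0406) and Serpina1c without FF HFD mouse 1 or LKO CD mouse 3 (adjusted p from 0.0102 to 0.0378). Bcl6 was called without FF HFD mouse 3, LKO CD mouse 1 or LKO HFD mouse 1 or 2 (adjusted p from 0.0108 to 0.0456). All other named genes kept their side of the threshold without each mouse, and the calls of C8b, Hsd3b5, Serpina1e, Selenbp2, Cyp2b9, Cyp4a14, Cyp4a10 and Cd36 were among those that held.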

How the data were processed

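Liver RNA of 18 mice was sequenced. The authors aligned reads with HISAT2 2.0.4 to mm10 and used the Partek Genomic Suite, per the submitters' processing notes, and deposited 1 table of RPKM values per mouse (reads per gene scaled by gene length and library depth). Annotation, strandedness and the handling of reads that match several genes are not given in the sources used here. Values were used as deposited. No columns of other samples were present (0).

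Groups were taken from the labels. All 4 groups entered a single fit in limma 3.58.1 (R 4.3.3, eBayes with a trend) on log2(RPKM + 1), a scale that understates changes of low genes, for genes averaging 0.5 RPKM or more, with the interaction and the 4 pairwise differences as contrasts. Two-sided p-values were adjusted by Benjamini-Hochberg over the 11090 tested genes. A call needed a fold above 1.5 and an adjusted p under 0.05. Unless stated, adjusted p-values in the text are those of limma and values after "interaction of" are log2 differences. The fit was tested on simulated data.

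Depth was recovered from values under 0.2 RPKM. It limits precision for low genes, and 3 reads served as floor. Symbols of 24369 genes matched GENCODE (GRCm38), which gave the coordinates. Promoters came from RefSeq. Python 3.11.15, numpy 2.4.6, pandas 2.3.3, scipy 1.17.1 and matplotlib 3.10.9 were used.

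The members, lists and tests were chosen with earlier results of these data known. Named genes were the 8 highest and 8 lowest called interactions at a mean RPKM of at least 1, the 2 genes with the largest absolute interaction per list (25 lists, mean RPKM of at least 1), the 2 called genes with the largest absolute interaction per pattern with at least 5 called genes (mean RPKM of at least 5), and Ppp6r3, Fasn and Acacb, 62 in all, since 1 gene given by this rule is not reported here. A further 31 were chosen after their values were seen (Xbp1, Manf, Calr, Fga, Fgb, Fgg, Itih3, Fth1, Mlxipl, G6pc, Pparg, C6, C8a, C8b, C9, Egfr, Lgals1, Acadm, Ehhadh, Acot2, Vnn1, Pdk4, Tagln, Nqo1, Gstm1, Mup20, Igf1, Bcl6, Cyp2c70, Abcc3 and Cyp1a2). Alternatives were no filter, a filter at 1 RPKM, a pseudocount of 0.1, rescaling to the same sum, quantile normalization, median centring, no or robust moderation of the variance, a replicate block, the adjusted p alone, other limits for a clear pattern and leaving out each mouse.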

Additional observations from a re-analysis of the deposited data

Results flagged for a closer look

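Single mice stood apart from their group in 16 of the 372 groups looked at (93 named genes in 4 groups), by the ratio of the gap to the range, which chance exceeds in about 1 in 20 groups. On CD, Serpina1e was 5356 RPKM in FF CD mouse 3 against 3169 to 3311 in the other FF CD mice, S100a8 was 0.981 in FF CD mouse 3 against 0.603 to 0.636 and Lyve1 was 3.19 in FF CD mouse 4 against 0.873 to 1.07. Cyp2b9 was at 0 in FF CD mouse 1, where the others held at most 1 read, and was 3.42 in LKO CD mouse 4 against 0 to 0.196 in the other LKO CD mice. Among LKO CD mice, Cdkn1a was 0.819 in mouse 2 against 0.415 to 0.454, Cyp1a2 was 109 in mouse 2 against 147 to 156, Mup20 was 5577 in mouse 4 against 8989 to 9136 and Igf1 was 73.7 in mouse 3 against 66.3 to 67.4.

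On HFD, FF HFD mouse 1 stood apart in 3 genes, with Fasn at 50.8 RPKM against 65.4 to 71.9, Manf at 70.8 against 35.2 to 41.7 and Mlxipl at 56.5 against 41.6 to 43.5. Egfr was 5.70 in FF HFD mouse 2 against 12.7 to 15.1. Among LKO HFD mice, Cyp2c38 was 16.6 in mouse 5 against 23.5 to 25.2, Cela1 was 3.89 in mouse 4 against 8.22 to 10.7 and Cyp1a2 was 166 in mouse 2 against 99.7 to 115. The part of these single mice in the interactions is given by the values without each mouse.

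The response to HFD differed between FF and LKO mice, by the interaction in limma, in the 61 called genes named in the text, given here as log2 interactions. Low in FF HFD were Serpina1e 7.19, Hsd3b5 5.86, Serpina4-ps1 3.95, Cyp7b1 2.72, Fgb 1.07, Mlxipl 0.81, C6 2.40, C8a 1.56, C8b 2.50, Egfr 3.03, Mup20 2.24 and Cyp2c70 1.41. High in FF CD were Mup7 6.40, Mup15 4.92, Mup17 4.63, Mup12 4.29, C9 1.22 and Cyp1a2 0.84. High in FF CD and LKO HFD were Selenbp2 6.21, Mup21 2.96, Manf 1.41 and Itih3 1.23. High in LKO HFD were Camkk2 0.66, Lrg1 1.63, Sdf2l1 1.57, Xbp1 1.37, Calr 0.63, Fga 1.07 and Fgg 1.06. High in FF HFD were Cyp2b9 -5.99, Cyp2a4 -4.58, Cd36 -3.30, Mogat1 -1.93, Cidec -2.95, Cyp3a59 -1.69, Cdkn1a -1.45, Col3a1 -1.66, Col1a1 -1.51, Fth1 -0.90, Lgals1 -2.67, Pdk4 -1.39, Tagln -0.77 and Nqo1 -1.57. Low in FF CD were Cyp4a14 -5.26, Cyp4a10 -3.71, Gsta1 -3.51, Acot3 -3.26, Hexa -0.92, Cyp2c38 -2.40, Gsta2 -2.45, Pparg -1.72, Acadm -0.80, Ehhadh -1.11, Acot2 -2.03, Vnn1 -2.21, Gstm1 -1.19 and Abcc3 -1.69. High in LKO CD and FF HFD were Plk3 -2.24 and Slco1a4 -2.08. Low in LKO HFD were Hamp2 -3.69 and G6pc -0.99.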

How the results depend on the processing

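The 271 interaction calls (105 higher, 166 lower) became 169 (71 and 98) with no filter, of which 160 were among the 271, 411 (112 and 299) on rescaling to the same sum, of which 260 were, and 167 (68 and 99) with no moderation of the variance, of which 166 were. Leaving out each mouse gave 156 to 392 calls, 69 to 150 higher and 87 to 242 lower. A pseudocount of 0.1, a filter at 1, quantile normalization, median centring, robust moderation and the adjusted p alone gave 262 to 344. A clear pattern at a stricter limit held for 22.5% of called genes. The sign of Fasn (-0.045) and Acacb (-0.0058) turned on rescaling to the same sum. Leaving out each mouse gave interactions of -0.18 to 0.11 for S100a9, -0.14 to 0.035 for Lipe, -0.89 to 0.31 for Hba-a2, -0.25 to 0.34 for Fasn and -0.071 to 0.24 for Acacb, none of them called, and the cause was not tested. Medians of the lists kept their sign under all 3 rescalings except for hepatocyte markers. With no filter they fell towards 0 for female-biased genes (-0.25), xenobiotic P450 genes (from -0.34 to -0.22), genes with complement symbols (0.06) and clade A serpins (0.16). Of the 61 called genes named, 42 kept their call under every other setting.

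Deviations from the group means were correlated between mice of different groups. With the same replicate number r was -0.173 to 0.332 (25 pairs, median 0.054, 10 over 0.1). With other numbers it was -0.352 to 0.386 (96 pairs, median -0.012, 26 over 0.1). The ranges overlap, so these values do not decide whether the numbers pair mice. With the replicate number as a block 294 genes were called (107 higher, 187 lower), 250 of them among the 271, and the adjusted p rose to 0.0913 for Camkk2, 0.0616 for Slco1a4, 0.074 for Calr, 0.0537 for Pdk4 and 0.0749 for Tagln, while Cela1 (0.0324) and Arsa (0.0451) became called. Depth limits genes near 1 read, such as Cyp2b9 on CD.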

Other observations

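Gene families outside the lists were looked at after the values were seen, so their counts are descriptions. Members were taken by the form of their symbols, so genes that share a name without belonging to the family may be included. Over all tested genes 0.947% were called higher and 1.5% lower. Of 19 tested genes with symbols of complement components, 7 were called higher (C1ra, C4a, C6, C8a, C8b, C9 and Hc) and none lower. Their median interaction was 0.54 against -0.01 over all genes, and 2 rose and 8 fell with HFD in FF mice. The 34 genes listed, of which these 19 passed the filter, also hold C1q-like genes such as C1ql1 and C1ql2. With no filter the median was 0.06. The count was 5 without FF CD mouse 3, LKO CD mouse 2 or 4 or LKO HFD mouse 4. Of 16 clade A serpins, 5 were called higher (Serpina11, Serpina1a, Serpina1e, Serpina3k and Serpina4-ps1), all low in FF HFD, and the median was 0.68 (0.16 with no filter). Of 22 major urinary proteins, 11 were called higher, with a median of 3.00, and the number was 7 without LKO CD mouse 4. Their summed RPKM was 32882 to 45282 in FF CD, 13234 to 21676 in LKO CD, 8521 to 18792 in FF HFD and 19084 to 33531 in LKO HFD mice.

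Of 10 acyl-CoA thioesterases, 5 were called lower, with all 10 interactions below 0 and a median of -0.69, and without LKO CD mouse 2 the count was 3. Annexins had 2 of 10 called lower (Anxa2 and Anxa5, median -0.34), and 0 without FF CD mouse 3 or LKO CD mouse 2, and Lgals1 was called among 7 galectins (median -0.30). Carboxylesterases had 1 called higher (Ces4a) and 2 lower (Ces1g and Ces2e) of 14, and the latter were 0 for 7 of the 18 mice left out in turn. None of 96 genes with symbols of cytosolic ribosomal proteins was called, with 81 interactions above 0 and a median of 0.16. None of 49 genes with symbols like those of complex I subunits was called, with 45 below 0 and a median of -0.21. The same held for 42 genes with symbols of proteasome subunits (median -0.08, none called).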
